A study of Mus musculus with 6 samples.

Results

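Cell cycle and DNA replication genes were followed in endometriosis-like lesions of mice treated with niclosamide or vehicle. The set held 36 genes out of 41786 gene symbols in the deposited tables. They were picked by symbol and comprised 23 genes of mitosis, 10 genes of DNA replication (the S-phase class) and 3 transcription factors of the cell cycle. All 36 were found and all 36 passed the filter on low counts, among 17364 genes tested.

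Female C57BL/6 mice were used. Donors were 6 weeks old and B6-GFP positive, and their uterine tissue was sutured to the peritoneum of wild-type hosts aged 8 weeks at a matched stage of the estrous cycle. Lesions developed for 3 days, and oral dosing then ran daily for 3 weeks with either vehicle or 200 mg/kg niclosamide. Lesion tissue was dissected away from the host's own tissue at diestrus. Each group had 3 libraries; the library vehicle 1 pooled RNA of 4 mice and every other library came from 1 mouse. The engrafted tissue can still hold recipient cells such as leukocytes and vessels, and the counts do not separate donor from recipient.

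Proliferating cells copy their DNA in S phase and divide it in mitosis. The licensing helicase (the MCM complex), the sliding clamp PCNA and the enzymes that make deoxynucleotides serve the first step, and their genes are switched on by E2F factors around the G1/S boundary. Cyclin B with CDK1, the Aurora and Polo kinases, the spindle motors and the kinetochore proteins serve the second step, and their genes peak in G2 and M under the MuvB complex with B-MYB (Mybl2) and FOXM1. In the uterus these transcripts are known to rise with estrogen-driven proliferation, and in a mixed tissue they mark dividing cells of any type. The series addresses lesion growth under niclosamide, an oral anthelmintic drug.

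Promoter motifs of the mitosis and S-phase members are shown first because the classes were described apart throughout. RefSeq promoter windows on GRCm38.p6 (250 bases before to 50 after each gene's start) were matched by symbol for 31 of the 36 members. *Ccna2*, *Aurkb*, *Tpx2*, *Mcm4* and *Foxm1* were not matched. In 23 of the 31, bases 11 to 40 after the start were found in a GENCODE vM21 transcript of the gene. Positions given from the start therefore depend on the annotation used. The motifs searched on both strands were the cell cycle homology region (TTTGAA and its variant form TTCGAA), known from late cell cycle promoters, the CCAAT box (CCAAT), and the E2F motif in 3 forms (TTCGCGC, the form TTGGCGC and the form TTCCCGC). Of 20 mitosis members with a window, 16 (80%) held a cell cycle homology match, against 21.7% of all 27025 genes with a window and 2 of 9 S-phase members. All 16 also held a CCAAT box, a pair found in 8.61% of all genes. A CCAAT box was common in both classes, in 18 of 20 mitosis members (90%) and 7 of 9 S-phase members (77.8%), against 41.1% of all genes. An E2F match was present in 5 of 9 S-phase members (55.6%) and in 3 of 20 mitosis members (15%), against 9.2% of all genes. A cell cycle homology match starting from base -40 to base 50, a stretch chosen after the positions were seen, occurred in 15 of 20 mitosis members and in 5.48% of all genes. A cell cycle homology match shared bases with a CCAAT box in 1 member window, a CCAAT box with an E2F match in 2, and E2F matches with each other in 4, where both strands were read as a match. A match describes letters only.

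The mitosis promoters below show the cell cycle homology region and the CCAAT box (ATTGG on the other strand) in capitals, written on the gene's strand. *Mki67* (chr7:135716360-135716505, minus strand) and *Kif11* (chr19:37376312-37376401, plus strand) were taken by rule as the members of smallest p with a match. *Top2a* (chr11:99024170-99024259, minus), *Cdk1* (chr10:69352893-69352982, minus), *Cdc20* (chr4:118437324-118437413, minus) and *Ube2c* (chr2:164769859-164769948, plus) were added after the matches were seen, as further members with a match within 40 bases before the start. Each stretch ends 20 bases after the start; the CCAAT boxes of *Mki67* lie before the stretch shown.
Mki67: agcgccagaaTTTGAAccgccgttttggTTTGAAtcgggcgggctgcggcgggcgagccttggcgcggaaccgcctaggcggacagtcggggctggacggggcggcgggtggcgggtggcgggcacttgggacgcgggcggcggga
Kif11: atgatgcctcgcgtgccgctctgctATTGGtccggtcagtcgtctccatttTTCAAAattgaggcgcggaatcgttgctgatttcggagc
Top2a: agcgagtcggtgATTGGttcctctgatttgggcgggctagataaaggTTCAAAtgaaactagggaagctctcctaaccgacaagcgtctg
Cdk1: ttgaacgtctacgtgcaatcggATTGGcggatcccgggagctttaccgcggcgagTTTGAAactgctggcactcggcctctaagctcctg
Cdc20: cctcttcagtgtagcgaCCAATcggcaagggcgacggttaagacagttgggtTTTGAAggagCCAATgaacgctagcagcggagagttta
Ube2c: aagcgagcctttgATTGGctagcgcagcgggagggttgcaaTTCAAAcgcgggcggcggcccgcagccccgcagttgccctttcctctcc

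The S-phase promoters below, again taken by rule, show E2F matches in capitals. *Mcm5* lies at chr8:75109335-75109528 (plus strand) with 3 matches in the stretch, and *Mcm6* at chr1:128359686-128359824 (minus strand) with 4.
Mcm5: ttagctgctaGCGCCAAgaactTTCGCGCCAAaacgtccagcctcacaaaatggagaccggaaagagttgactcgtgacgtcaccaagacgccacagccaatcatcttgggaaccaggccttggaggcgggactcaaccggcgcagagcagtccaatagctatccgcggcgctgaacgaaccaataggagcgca
Mcm6: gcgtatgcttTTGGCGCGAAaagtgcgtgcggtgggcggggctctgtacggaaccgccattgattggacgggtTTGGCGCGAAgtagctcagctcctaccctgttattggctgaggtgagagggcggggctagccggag

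**Figure D1:**
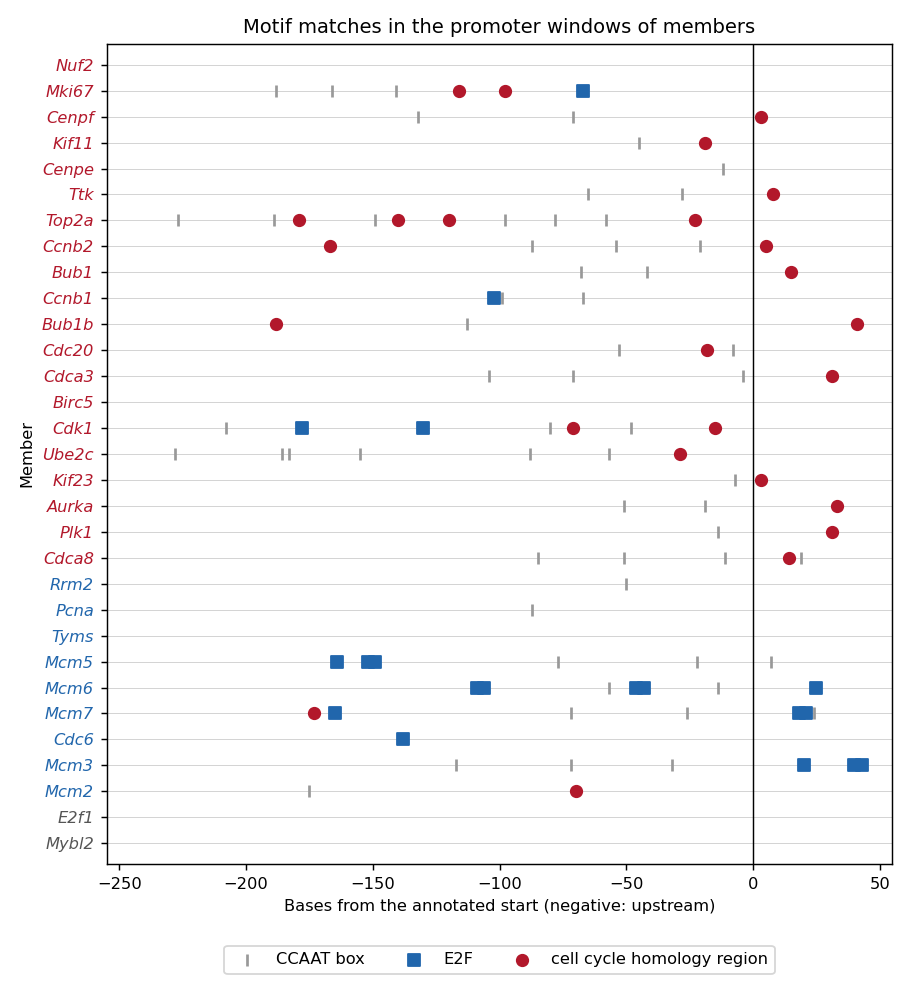
Positions of motif matches in the promoter window of each of 31 members (the first window where a gene has several), in bases from the annotated start. Red gene names are mitosis members, blue S-phase members and grey factors; cell cycle homology matches (red circles) are in 16 of 20 mitosis members, many close to the start, and E2F matches (blue squares) in 5 of 9 S-phase members.

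Library totals ran from 27797121 to 34797000 counts. Members had 116 (*Mybl2*, niclosamide 1) to 7950 counts (*Top2a*) in a library, far above the limit of 3 counts that a count of 0 would allow (0.0824 to 0.109 CPM, counting error only). The uterine identity list (10 genes, among them *Hoxa10*, *Hoxa11*, *Esr1* and *Pgr*) had no gene at 0 in any library, with summed CPM of 767 to 1156 with vehicle and 347, 558 and 1198 in niclosamide 1 to 3. Levels are given in CPM, the count scaled to the library's total, so for every member fewer dividing cells and less transcript per dividing cell cannot be told apart.

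No member differed between niclosamide and vehicle beyond the spread between libraries. 0 of 36 members were called at an adjusted p under 0.05 (edgeR quasi-likelihood), as was the case for 0% of all genes tested, and adjusted p ran from 0.805 to 0.998 over the members. At an unadjusted p under 0.05 there were also 0 members, where 3.37% of all genes were higher and 3.55% lower. DESeq2 called 0 members (1.09% of all genes) and limma-voom 0 members (0 of all genes). The groups overlapped in all 36 members, where 5.9% of all genes were apart with niclosamide higher and 6.37% with niclosamide lower. Within each group the libraries differed widely, and the lowest library of each group was the same in every member.

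In all 36 members vehicle 3 was the lowest of the vehicle libraries and niclosamide 1 the lowest of the niclosamide libraries. The order of niclosamide 2 and 3 varied, with niclosamide 3 the higher in 14 of 23 mitosis members and in 5 of 10 S-phase members. Niclosamide 1 was the lowest of all 6 libraries in 29 members (23.8% of all genes), and vehicle 3 in the other 7 (8.73% of all genes). Niclosamide 3 was the highest in 20 members (19.6% of all genes) and niclosamide 2 in 11 (17.8%).

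**Figure D2:**
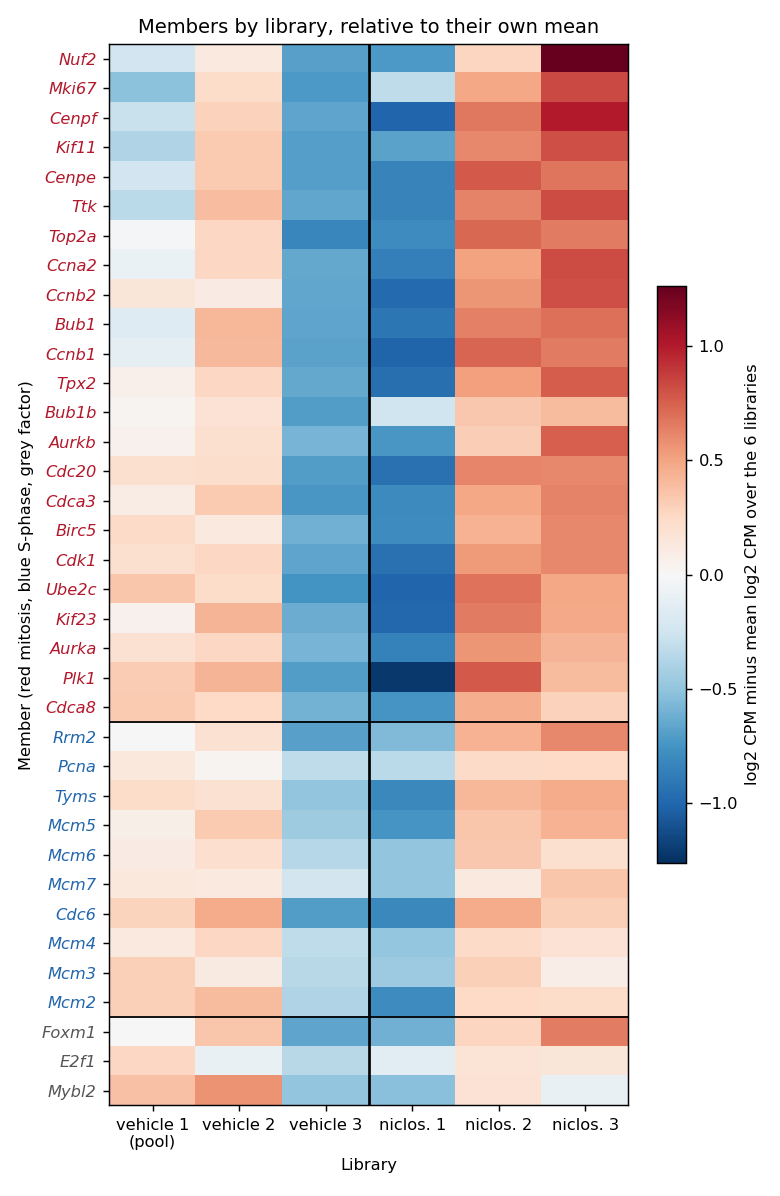
Log2 CPM of each member in each of the 6 libraries, minus the member's mean over the libraries; mitosis, S-phase and factor members are separated by horizontal lines and the groups by the vertical line. Vehicle 3 and niclosamide 1 are low (blue) across nearly all members and niclosamide 2 and 3 are high (red), so each group holds libraries of both kinds.

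Transcripts of mitosis spread more between libraries than those of S phase. The ratio of the highest to the lowest library had a median of 3.04 over the 23 mitosis members (2.15 for *Bub1b* to 4.00 for *Cenpf*) and of 2.03 over the 10 S-phase members (1.51 for *Pcna* to 2.44 for *Rrm2*), against 1.79 over all genes tested. The SD between replicates, on the log2 CPM scale, had a median over mitosis members of 0.51 with vehicle and 0.90 with niclosamide. For S-phase members it was 0.37 and 0.52, for the 3 factors 0.51 and 0.35, and for all genes tested 0.22 and 0.31. Vehicle 1 pools RNA of 4 mice, so the vehicle SD is not a spread between single mice. The SDs of the groups are therefore not like for like.

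*Mki67*, which encodes the proliferation marker Ki-67 that coats mitotic chromosomes (chromosome 7, 135689782 to 135716408), had the smallest p of the members. Its level was 81.7, 137 and 70.5 CPM in the vehicle libraries, in order of replicate number here and throughout. It was 93.7, 164 and 208 CPM in the niclosamide libraries. Niclosamide 2 and 3 lay above every vehicle library, but niclosamide 1 lay inside the vehicle range. The log2 fold change was 0.68 ± 0.37 (SE) (edgeR quasi-likelihood, adjusted p = 0.805).

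*Top2a*, the topoisomerase that untangles replicated chromosomes (chromosome 11, 98992947 to 99024206), had 146, 178 and 84 CPM with vehicle and 86, 246 and 234 CPM with niclosamide. Niclosamide 1 and vehicle 3 were alike and low, and the other niclosamide libraries stood above all vehicle libraries. The log2 fold change was 0.47 ± 0.45 (SE).

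*Cdk1*, the kinase that drives entry into mitosis (chromosome 10, 69336635 to 69352912), had 50.6, 52.5 and 27.7 CPM with vehicle and 22.8, 63.8 and 67 CPM with niclosamide. Its niclosamide libraries lay on either side of the vehicle range, with a log2 fold change of 0.23 ± 0.45 (SE). The cyclin partners followed the same libraries. *Ccnb1* and *Ccnb2*, the B-type cyclins, had log2 fold changes of 0.37 and 0.40, and *Ccna2*, the cyclin of S phase and G2, 0.43.

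Of the 4 largest fold changes 3 belonged to kinetochore and motor genes. *Nuf2*, a subunit of the NDC80 complex that ties kinetochores to microtubules, had 13.3, 17.2 and 9.77 CPM with vehicle and 9.55, 18.9 and 37.7 CPM with niclosamide. Niclosamide 3 stood far above the other libraries. The log2 fold change was 0.72 ± 0.50 (SE), and 0.10 without that library. *Kif11*, the motor that separates the spindle poles, had 28.9, 47.3 and 23.1 CPM with vehicle and 23.5, 56.9 and 66 CPM with niclosamide (log2 fold change 0.56 ± 0.44 SE). *Cenpf*, a kinetochore-associated protein, had 25.2, 37.4 and 19.3 CPM with vehicle and 15.3, 48.7 and 61.2 CPM with niclosamide (0.61 ± 0.52 SE). In both genes niclosamide 2 and 3 exceeded all vehicle libraries and niclosamide 1 was at the level of vehicle 3 or below it. *Cenpe*, the kinetochore motor, had a log2 fold change of 0.50, *Ttk*, the checkpoint kinase MPS1, 0.50, and *Kif23*, a motor of the central spindle, 0.20.

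For genes of the spindle checkpoint and of mitotic exit, the log2 fold change was 0.38 for *Bub1* and 0.30 for *Bub1b*, both of the spindle checkpoint, and 0.29 for *Cdc20*, the activator of the anaphase-promoting complex. *Ube2c*, the ubiquitin-conjugating enzyme of that complex, had 0.20. *Aurkb*, *Birc5* and *Cdca8*, all of the chromosomal passenger complex, had 0.30, 0.24 and 0.04, *Aurka* and its activator *Tpx2* 0.17 and 0.34, and *Cdca3*, a trigger of mitotic entry, 0.26.

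*Plk1*, the Polo kinase, was one of the 2 mitosis members with the lowest log2 fold change, 0.11 ± 0.54 (SE). It had 21, 22.6 and 10.3 CPM with vehicle and 7.24, 28.7 and 22.2 CPM with niclosamide, so that niclosamide 3 lay inside the vehicle range and niclosamide 1 far below it. *Cdca8*, which encodes borealin, was the other, with 24.9, 23.6 and 13.1 CPM with vehicle and 11.8, 27.3 and 24.2 CPM with niclosamide (0.04 ± 0.38 SE). These were the only mitosis members in which niclosamide 2 and 3 did not both exceed every vehicle library.

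**Figure D3:**
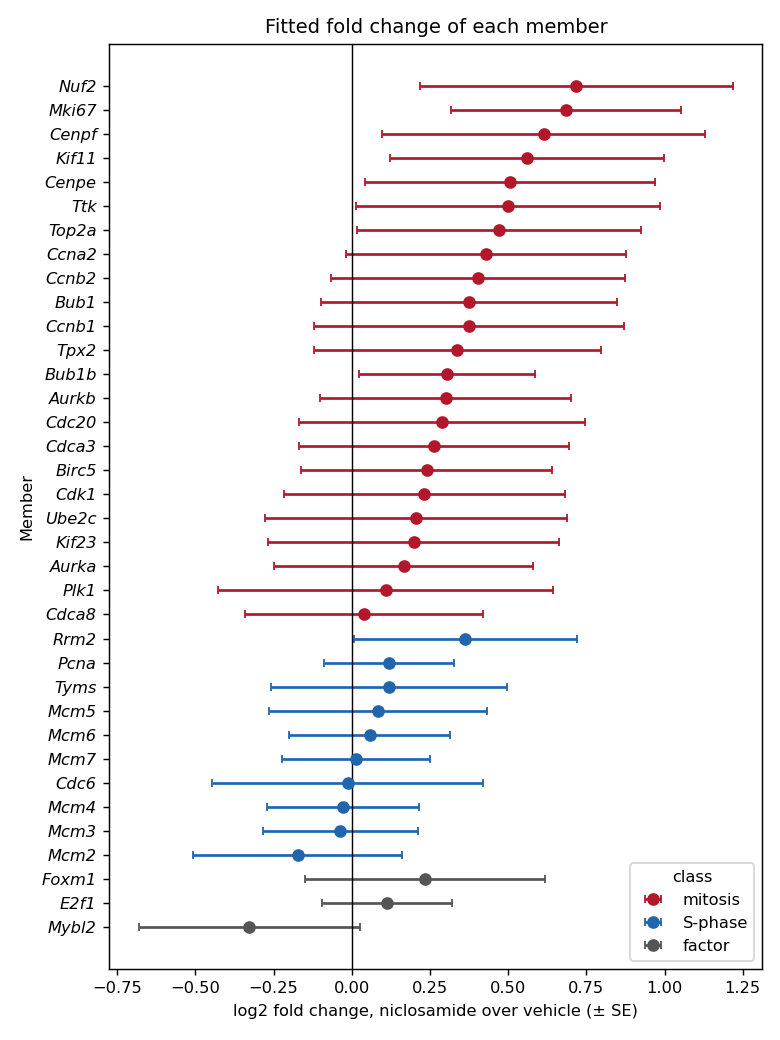
Fitted log2 fold change of each member, niclosamide over vehicle, with its standard error, from 3 libraries per group. All 23 mitosis members lie above 0, S-phase members lie on either side of 0, and no member passed the threshold.

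As a class, all 23 mitosis members had a log2 fold change above 0 (53.7% of all genes tested did), with a median of 0.34 against 0.02 over all genes tested. The members vary together over the same 6 libraries, so this count does not stand for 23 separate observations. The median was 0.70 without niclosamide 1, 0.51 without vehicle 2, 0.19 without niclosamide 2, 0.12 without vehicle 3 and 0.09 without niclosamide 3, and 17 of the 23 members were above 0 without vehicle 3. Without niclosamide 1, 8 of the 36 members were higher with niclosamide at an unadjusted p under 0.05, as were 2.64% of all genes in that fit. The lowest adjusted p of a member was then 0.868 (edgeR quasi-likelihood). That fit drops the lowest niclosamide library of all 36 members. At the same unadjusted threshold there was 1 member without vehicle 2 (810 genes in all) and 0 members with any other library left out. In those other fits the genes past it ranged from 686 without vehicle 3 to 1917 without niclosamide 3.

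Library by library, niclosamide 2 was above all 3 vehicle libraries in 23 of 23 mitosis members (29.3% of all genes) and niclosamide 3 in 21 (30.6%), which makes 21 in which both were above (11.1%). Niclosamide 1 was below all 3 vehicle libraries in 19 (34.4% of all genes). The full pattern was niclosamide 1 below and both other niclosamide libraries above the vehicle range. It was found in 17 mitosis members, in 3 S-phase members (*Pcna*, *Tyms* and *Mcm5*) and in 2.28% of all genes tested. This pattern was taken from the values of these same members, which vary together. Its count is therefore a description and not a test against the share of all genes. The vehicle range also includes vehicle 1, a pool of 4 mice. The 4 mitosis members in which niclosamide 1 was not below vehicle were *Mki67*, *Top2a*, *Bub1b* and *Kif11*.

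S-phase members differed less between libraries and lay close to 0 on average. *Pcna*, the sliding clamp (chromosome 2, 132249286 to 132253180), had 101, 94.1 and 73.5 CPM with vehicle and 72.9, 109 and 110 CPM with niclosamide. Its log2 fold change was 0.12 ± 0.21 (SE), and the groups covered nearly the same range. By length it was the most abundant member, at a mean of 176 TPM (a level scaled by exonic length), followed by *Ube2c* with 88.1, *Mcm6* with 83.1 and *Top2a* with 73.8 TPM. The least abundant were *Mybl2* with 3.43 and *Cdc6* with 4.58 TPM.

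*Rrm2*, the regulated subunit of ribonucleotide reductase, had the largest fold change of the S-phase class. It had 34.7, 39.7 and 21.6 CPM with vehicle and 23.6, 47.0 and 52.8 CPM with niclosamide (0.36 ± 0.36 SE on the log2 scale). Niclosamide 2 and 3 exceeded all vehicle libraries, and niclosamide 1 lay inside the vehicle range. *Tyms*, thymidylate synthase, had 29.7, 29.0 and 17.9 CPM with vehicle and 14.4, 33.8 and 35 CPM with niclosamide (0.12 ± 0.38 SE).

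The MCM genes, whose products form the replicative helicase, had log2 fold changes between -0.17 and 0.08. *Mcm2* (chromosome 6, 88883474 to 88898780) had 52.1, 55.95 and 32.6 CPM with vehicle and 24.5, 50.4 and 49.95 CPM with niclosamide, the lowest of the class (-0.17 ± 0.33 SE). Here niclosamide 2 and 3 stayed inside the vehicle range while niclosamide 1 was below it. *Mcm3* had 69.3, 60.8 and 44.2 CPM with vehicle and 41.0, 69.2 and 59.7 CPM with niclosamide (-0.04 ± 0.25 SE). *Mcm4*, *Mcm5*, *Mcm6* and *Mcm7* had log2 fold changes of -0.03, 0.08, 0.06 and 0.01, and *Cdc6*, which loads the helicase onto origins, -0.01. Niclosamide 1 was below the vehicle range in 9 of 10 S-phase members (34.4% of all genes), *Rrm2* being the exception. Niclosamide 2 and 3 both exceeded the vehicle range in 4 of the 10 (11.1% of all genes).

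Of the 10 S-phase members 6 had a log2 fold change above 0, with a median of 0.04. That count was 2 without vehicle 3, without niclosamide 2 or without niclosamide 3, and 10 without niclosamide 1, with medians of -0.09, -0.09, -0.08 and 0.27. Without vehicle 1 the median was 0.11 and without vehicle 2 it was 0.16.

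The S-phase median was 0.30 below the mitosis median on the log2 scale. Averaged over members, log2 CPM of the mitosis class was 4.79, 5.07 and 4.12 with vehicle and 3.96, 5.36 and 5.47 with niclosamide. For the S-phase class it was 5.60, 5.66 and 5.001 with vehicle and 4.83, 5.74 and 5.74 with niclosamide. The order of libraries was nearly the same in both classes, with niclosamide 1 lowest and vehicle 3 next. The S-phase mean minus the mitosis mean was 0.81, 0.59 and 0.88 with vehicle and 0.87, 0.39 and 0.28 with niclosamide. Niclosamide 2 and 3 had the smallest gaps between the classes and niclosamide 1 a gap inside the vehicle range, so the groups overlapped (0.76 ± 0.15 with vehicle and 0.51 ± 0.31 with niclosamide, SD, n = 3).

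**Figure D4:**
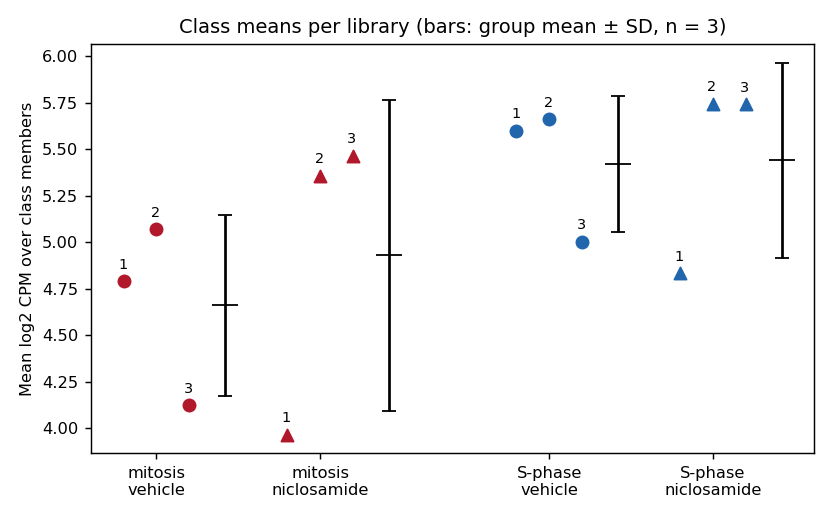
Mean log2 CPM over the mitosis members (red) and S-phase members (blue) in each library, with replicate numbers, vehicle as circles and niclosamide as triangles; bars are the group mean ± SD (n = 3). In both classes vehicle 3 and niclosamide 1 sit below the other libraries of their group, and the vertical distance between libraries is wider for mitosis.

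The transcription factors of the set differed from each other in their library pattern. *E2f1*, which activates S-phase genes (chromosome 2, 154559400 to 154569892), had 17.9, 14.04 and 11.7 CPM with vehicle and 13.7, 16.8 and 16.7 CPM with niclosamide, the smallest ratio of highest to lowest library of these factors, and a log2 fold change of 0.11 ± 0.21 (SE). *Foxm1*, which drives late cell cycle genes (chromosome 6, 128362994 to 128375886), had 17.98, 22.8 and 11.3 CPM with vehicle and 11.7, 21.5 and 27.99 CPM with niclosamide (0.23 ± 0.38 SE). Niclosamide 3 alone exceeded the vehicle range. *Mybl2*, which encodes B-MYB (chromosome 2, 163054333 to 163084688), had 7.33, 8.38 and 4.02 CPM with vehicle and 3.94, 6.46 and 5.32 CPM with niclosamide, the lowest log2 fold change of all members (-0.33 ± 0.35 SE). Unlike the mitosis members, it was no higher in niclosamide 2 and 3 than in vehicle 1 and 2.

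Other genes of these pathways were described from lists. Of 50 other mitosis genes 44 were above 0 and 6 below, with a median of 0.27, and 0 passed the threshold or an unadjusted p under 0.05. The smallest p belonged to *Smc4*, a condensin subunit that had 79.6, 128 and 98.2 CPM with vehicle and 110, 163 and 188 CPM with niclosamide (0.59 ± 0.26 SE, adjusted p = 0.742, edgeR quasi-likelihood). *Kif15* and *Kif18a*, both mitotic kinesins, had log2 fold changes of 0.52 and 0.59. Of 49 other replication genes 33 were above 0, with a median of 0.07 and 0 past either threshold. *Mcm8*, *Rfc4*, a clamp loader subunit, and *Gins4*, of the helicase, had 0.52, 0.41 and 0.16. Niclosamide 1 was the lowest library in 40 of the 50 and 31 of the 49 genes.

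Genes of G1 and the brakes of the cycle lay on both sides of 0. Of 14 genes listed as G1 cyclins and kinases 5 were above 0 and 9 below (median -0.10). That list also holds *Mycn*, which encodes a transcription factor. *Ccnd1*, cyclin D1, had 166, 178 and 112 CPM with vehicle and 95.8, 192 and 201 CPM with niclosamide (0.10 ± 0.32 SE), the library pattern of the mitosis members. *Ccnd2* and *Ccne1* had log2 fold changes of 0.09 and -0.08, and *Ccnd3* -0.18. *Cdk6*, a G1 kinase, had 79.8, 78.7 and 80.5 CPM with vehicle and 67.2, 68.6 and 54.5 CPM with niclosamide. Its groups did not overlap, and its log2 fold change of -0.33 ± 0.13 (SE) had an unadjusted p of 0.0367 and an adjusted p of 0.684 (edgeR quasi-likelihood). *Mycn* was also apart, with 30.8, 20.7 and 20.2 CPM with vehicle and 1.66, 19.5 and 4.70 CPM with niclosamide (-1.47 ± 0.83 SE). Groups were thus apart with niclosamide lower in 2 of these 14 genes and in 6.37% of all genes.

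Of 16 cell cycle inhibitors 10 were above 0, with a median of 0.05 and 0 past either threshold. *Cdkn1a* (p21), whose row joins distant exons of chromosome 17 in the deposited annotation, had 96.7, 51.3 and 60.8 CPM with vehicle and 81.1, 87.4 and 42.6 CPM with niclosamide (0.02 ± 0.35 SE). *Cdkn1b* (p27), *Cdkn1c* (p57) and *Cdkn2a* had log2 fold changes of 0.06, 0.04 and -0.09. *Rb1*, the retinoblastoma protein, had 39.6, 51.1 and 45.6 CPM with vehicle and 72.9, 57.3 and 49.3 CPM with niclosamide (0.40 ± 0.18 SE). *Rb1* was highest in niclosamide 1, the library lowest in 19 of 23 mitosis members. In vehicle 3, lowest in the other 4, *Rb1* lay between vehicle 1 and vehicle 2. The *Rb1* relative *Rbl2* (p130) and the growth arrest gene *Gas1* had log2 fold changes of 0.31 and -0.38. Of 14 E2F, B-MYB and MuvB genes 9 were above 0 (median 0.04). *E2f2* had groups that did not overlap, with 14.2, 13.5 and 11.1 CPM with vehicle and 20.4, 15.6 and 15.1 CPM with niclosamide (0.39 ± 0.19 SE, adjusted p = 0.781, edgeR quasi-likelihood). It was 1 of the 14 genes apart with niclosamide higher, near the 5.9% of all genes. *Lin54* and *E2f5* had log2 fold changes of 0.22 and -0.17.

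Other features of the libraries moved with the members in part, and their role in the member values was not tested. Niclosamide 1, the lowest library in most members, also had the highest summed CPM of 12 skeletal muscle markers (34214, against 4792 to 11897 with vehicle, 919 in niclosamide 2 and 12190 in niclosamide 3) and the lowest of 12 epithelium markers (487, against 1110 to 2516 with vehicle, 3212 in niclosamide 2 and 735 in niclosamide 3). The 14 T and NK cell markers had sums of 349 to 387 with vehicle and 805, 864 and 584 in niclosamide 1 to 3, with niclosamide 1 among the high libraries. Of the 14, 12 were higher at an unadjusted p under 0.05 (edgeR quasi-likelihood), as were 3.37% of all genes. The 8 smooth muscle markers had sums of 5739 to 8469 with vehicle and 2681, 1938 and 4789 with niclosamide. Of these 8, 7 were lower at that threshold, as were 3.55% of all genes. Every other marker list given here had at most 3 genes past it. In edgeR 0 genes of the lists were called at an adjusted p under 0.05. DESeq2 called 6 of the 14 T and NK cell markers and 2 of the 11 B and plasma cell markers at that threshold (1.09% of all genes). The 10 macrophage markers had sums of 1686 to 3001 with vehicle and 3733, 3333 and 2037 with niclosamide. Sums of 9 stromal markers (13347 to 14043 and 11461 to 15657) and 8 endothelial markers (474 to 667 and 421 to 550) overlapped between the groups. The 11 B and plasma cell markers had sums of 1250 to 1685 with vehicle and 3910, 4319 and 2128 with niclosamide. Their mean log2 CPM overlapped between the groups, at 5.40, 3.87 and 4.83 with vehicle and 5.65, 5.55 and 4.72 with niclosamide. Sums of the 7 germinal centre B cell markers were 112 to 128 CPM with vehicle and 95.05 to 133 CPM with niclosamide. Among 11 erythroid precursor markers *Klf1* and *Gata1* were at most 0.31 CPM (sums 138 to 145 and 129 to 179). The 10 neutrophil precursor markers had sums of 2009 to 4563 and 345 to 3339, most of it in every library from *Ltf*, which uterine epithelium also expresses, with *Elane* and *Ms4a3* at 0 in vehicle 3. Their mean log2 CPM was 0.995, -0.373 and 0.299 with vehicle and 0.421, 1.34 and 2.04 with niclosamide. Of 7 tested, 4 had a log2 fold change above 0 and 3 below (-1.88 to 3.73). At an unadjusted p under 0.05 (edgeR quasi-likelihood) 2 were higher, as were 3.37% of all genes. No gene of the skeletal muscle, epithelium, smooth muscle, macrophage, stromal, endothelial or lymphocyte lists was at 0 in any library.

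Fold changes of the mitosis members were also ordered by transcript GC. Spearman's correlation of log2 fold change with transcript GC was -0.76 over the 23 mitosis members, -0.60 over the 10 S-phase members and -0.26 over 16413 genes; genes are not independent replicates and share libraries. The low-GC end held *Bub1*, *Kif11*, *Nuf2*, *Cenpe*, *Ttk*, *Cenpf* and *Top2a* (41.0 to 43.4% GC), and the high-GC end *Plk1*, *Cdc20* and *Ube2c* (55.5 to 55.98%). The correlation with exonic length was 0.61 over mitosis members, in which GC and length were themselves correlated (-0.69). Among the libraries the deviation of genes from their mean correlated with GC by 0.39 in vehicle 1, the pool, and by -0.23 in niclosamide 3. In genes of 44% GC or less the median log2 fold change was 0.14 over all 3020 genes and 0.50 over 7 mitosis members, and from 52 to 56% it was -0.03 over 3392 genes and 0.20 over 5 mitosis members. With a GC correction added after the data were seen, the medians were 0.33 for mitosis and 0.06 for S-phase members, 23 of 23 mitosis members were above 0, and the correlation with GC over mitosis members was -0.42. *Nuf2* then had 0.60, *Kif11* 0.46 and *Plk1* 0.24.

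**Figure D5:**
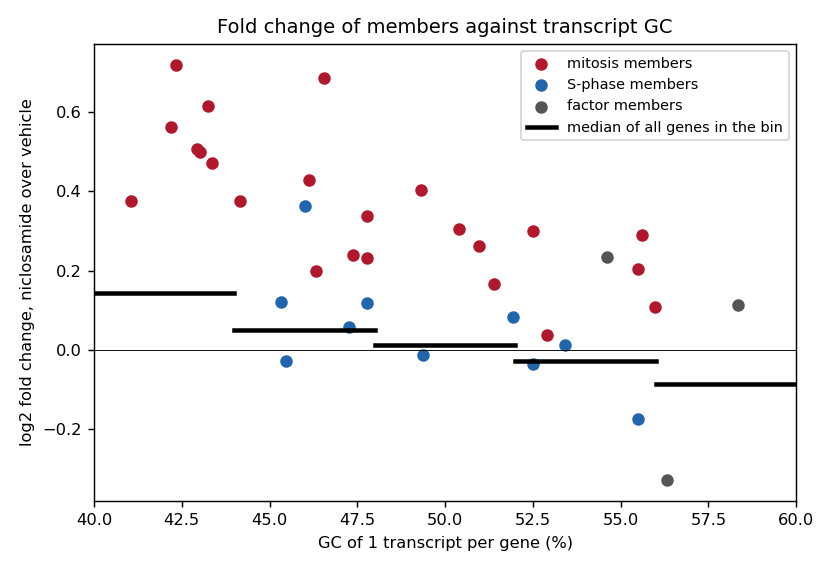
Log2 fold change (niclosamide over vehicle) of each member against the GC percentage of 1 transcript per gene, with the median of all tested genes in 5 GC bins as black lines. Mitosis members lie above the line of their bin across the range, and both members and all genes decline toward higher GC.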

How the data were processed

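RNA-seq libraries of 6 lesion samples were compared, and nothing but the pool is stated about how tissue was shared between them, so p-values measure the spread between these samples. The deposited values are raw read counts per gene symbol. The authors used featureCounts v1.4.6-p4, reverse-stranded and over exons, on STAR alignments with a GRCm38.p3 annotation, per the file headers. Among the tools in the submitters' processing notes are Trimmomatic 0.33 and STAR 2.4.2a.

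The 36 members, their classes and the other gene lists were chosen with earlier results of these data known. Genes were kept by filterByExpr (minimum count 10, minimum total count 15), scaled by TMM and fitted by edgeR 4.0.16 (quasi-likelihood, robust, group as the only term) in R 4.3.3. Adjusted p-values (Benjamini-Hochberg) span all 17364 genes tested, and 0.05 was the threshold. Fold changes are niclosamide over vehicle on the log2 scale, with an SE from the fold change and its F statistic (absolute value divided by the root of F). CPM uses TMM-scaled totals, and TPM uses the exonic length in the deposited tables. Class means average log2 CPM with a prior count of 2. The procedure was tested on simulated counts. Alternatives were other scalings, DESeq2 1.42.0, limma-voom (limma 3.58.1), other low-count filters, class assignments, the replicate number as a block, each library left out, and a correction for transcript GC added after the data were seen. Transcript GC came from the GENCODE vM21 transcripts, using 1 transcript per gene. Promoter windows came from RefSeq. Gene coordinates are those of the deposited tables, and promoter coordinates are on GRCm38.p6.

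The genes named were set by rule: all 36 members, with values in every library for 8 fixed members, for the 4 members of smallest unadjusted p in each of the mitosis and S-phase classes and for the 2 with the lowest fold change in each of these classes. Outside the members, 8 fixed regulators and up to 3 genes of smallest unadjusted p per pathway list were taken. Some items are not reported here.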

Additional observations from a re-analysis of the deposited data

How the results depend on the processing

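Over all alternatives 0 members were called, and the lowest adjusted p of a member was 0.66, without niclosamide 2. Over all genes, DESeq2 called 189 genes and the fit without a low-count filter called 1 (*Slc24a3*), where edgeR's filtered fit called 0 and had 1202 genes at an unadjusted p under 0.05. With a library left out, the mitosis median ran from 0.09 to 0.70, the S-phase median from -0.09 to 0.27, their difference from -0.42 to -0.17, the mitosis members above 0 from 17 to 23 and the S-phase members above 0 from 2 to 10. Direction held in 19 members under every alternative run and turned in 17 with a library left out. The ranges of those 17 were -0.086 to 0.49 for *Aurka*, -0.035 to 0.61 for *Aurkb*, -0.20 to 0.32 for *Cdca8*, -0.0036 to 0.58 for *Cdk1*, -0.10 to 0.55 for *Kif23*, -0.30 to 0.50 for *Plk1*, -0.11 to 0.56 for *Ube2c*, -0.28 to 0.28 for *Cdc6*, -0.37 to 0.092 for *Mcm2*, -0.22 to 0.15 for *Mcm3*, -0.17 to 0.17 for *Mcm4*, -0.10 to 0.37 for *Mcm5*, -0.12 to 0.27 for *Mcm6*, -0.16 to 0.21 for *Mcm7*, -0.075 to 0.42 for *Tyms*, -0.017 to 0.29 for *E2f1* and -0.045 to 0.51 for *Foxm1*. Sizes moved by over 1.5 times in members that kept direction too: *Nuf2* ran from 0.10 to 1.07, *Cenpf* from 0.25 to 1.00, *Top2a* from 0.22 to 0.81, *Ccna2* from 0.11 to 0.78 and *Rrm2* from 0.15 to 0.64, each highest without niclosamide 1. Outside these, direction turned under limma-voom for *Plk1* (-0.0051) and *Mcm7* (-0.016), with library quality weights for *Mcm3* (0.10), *Mcm4* (0.077) and *Cdc6* (0.22), without the filter for *Mcm7* (-0.0031) and with the GC correction for *Mcm3* (0.033) and *Cdc6* (0.0068); the cause was not tested.

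No pairing by the shared replicate numbers was seen: same-numbered libraries correlated by -0.0875 to 0.266, and only 1 of 3 vehicle libraries correlated best with its own number. With 3 libraries per group, each centred on its group mean, such correlations cannot exclude a pairing. With the replicate number as a block, 0 members and 0 genes were called, the mitosis median was 0.26 and the S-phase median 0.01, and *Mcm7* turned to -0.018. With 3 libraries per group, SEs of 0.21 to 0.54 limit what these data can show. Small changes of the members were not detectable at this replication, and larger ones could be missed as well. The lowest adjusted p over all genes tested was 0.174 (edgeR quasi-likelihood). T and NK cell markers had log2 fold changes up to 2.26, with 0 of 14 called by edgeR and 6 by DESeq2. *Nuf2*, at 1.07 without niclosamide 1, had an adjusted p of 0.868 in that fit (edgeR quasi-likelihood). The absence of calls therefore does not show that the members were unchanged.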
